A study of Mus musculus with 9 samples.

Results

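The 10 genes that carry lactate, pyruvate and glucose across membranes or convert pyruvate and lactate into each other were followed in oocytes of control, stressed and decoction-treated mice. They were chosen by symbol: the lactate dehydrogenase subunits Ldha and Ldhb, the monocarboxylate carriers Slc16a1, Slc16a3 and Slc16a7, the carrier chaperone Bsg, the mitochondrial pyruvate carrier subunits Mpc1 and Mpc2, and the glucose carriers Slc2a1 and Slc2a3. These are 10 of the 24736 genes in the tables, and all 10 were among the 13890 genes that passed the filter on low counts. Slc16a7 and Slc2a3 passed it with very few counts and are described by level only.

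The libraries came from ICR female mice, with 15 oocytes of 1 mouse in each library and 3 libraries per group. The oocytes were arrested at the second meiotic metaphase. The control group had no stress. The stress group had chronic stress for 6 weeks, with 1 stressor each day out of tail pinch, cold swimming, loss of water or food, wet bedding, continuous light and restraint. The KYZY group had the same stressors for 6 weeks and then 0.1 ml of the decoction Kai Yu Zhong Yu (KYZY), a herbal recipe, into the stomach once daily for 4 weeks. All 9 mice were superovulated with 7.5 IU of PMSG and 7.5 IU of HCG, and their oocytes were taken from the oviducts 16 hours after HCG and stripped of cumulus cells with hyaluronidase. The labels give an age of 4-5 weeks for every group without saying at which point of the protocol. They name no stressed group that was given the vehicle, so the decoction cannot be told apart from the gavage or from the added weeks. They also describe the sequencing of the KYZY libraries differently from that of the other 6, so this difference cannot be told apart from the decoction either.

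Mammalian oocytes use little glucose themselves and rely on pyruvate, much of which is made by the surrounding cumulus cells through glycolysis and handed over together with lactate. Lactate dehydrogenase is a tetramer of A and B subunits, and the B subunit is the form known from mouse oocytes and early embryos. Monocarboxylate carriers move lactate and pyruvate with a proton across the plasma membrane, glucose carriers of the Slc2 family let glucose in, and a heterodimer of Mpc1 and Mpc2 takes pyruvate into the mitochondrion.

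Total counts were 46324094 to 106990821 per library. Oocyte markers were abundant in all 9 libraries: the growth factor Gdf9 stood at 9848 to 16020 CPM (the count relative to the library total, scaled with TMM, edgeR's trimmed mean of log ratios) and Oog1 at 2101 to 11000 CPM. Tnfaip6, a matrix gene of expanding cumulus cells, had counts in 4 libraries (control 3, stress 3, KYZY 2 and KYZY 3) and 0 counts in the other 5. The summed level of 26 cumulus and granulosa markers was 74.5 to 689 CPM in those 4 libraries and 20.2 to 41.0 CPM in the other 5. Of 20 cumulus and granulosa markers that passed the filter, 12 were higher in each of the 4 libraries than in each of the 5, against 9.94% of all genes. Tnfaip6, which defines the split, is among the 12 and in the sum. Ptx3 and Btc, also among the 12, were at 0 in all 5 and passed the filter only through the 4. Inhba and Has2, at 0 to 0.0872 and 0 to 0.0981 CPM in the 5, passed it in the same way. The filter largely fixed the order of such genes, so 12 of 20 is a description only. The highest in level were the steroidogenic genes Cyp11a1 and Hsd3b1, while Areg and Pgr were at 0 in every library. None of 13 oocyte markers separated these libraries, and their sum was 31340 to 44100 CPM in the 4 and 25680 to 56760 CPM in the 5. Blood and immune markers summed to 2.65 to 66.6 CPM in the 4 and 1.29 to 4.33 CPM in the 5, with Lyz2 and C1qb the highest and Hbb-bs and Hbb-bt at 0. Stroma and endothelium markers, led by Pecam1 and Dcn, summed to 20.3 to 73.7 and 20.5 to 31.2 CPM, and oviduct markers, led by Cdh1, which oocytes also express, and Ovgp1, to 271.1 to 433.8 and 336.6 to 501.4 CPM. The 4 libraries were not alike: the stroma and endothelium sum was 63.0 in control 3 and 73.7 in KYZY 3, but 24.5 in stress 3 and 20.3 in KYZY 2. Dcn stood at 16.3 and 19.9 CPM in control 3 and KYZY 3 and at 0.149 to 0.569 CPM elsewhere. Ovgp1 stood at 4.74 and 7.75 CPM in control 3 and KYZY 3 and at 0 to 2.09 CPM elsewhere. Markers of other cell types that were higher in each of the 4 libraries than in each of the 5, named after their values were seen, were the keratins Krt8 (0.885 to 3.65 against 0.0491 to 0.411 CPM) and Krt18 (0.778 to 5.69 against 0 to 0.288), the complement gene C1qa (0.186 to 1.56 against 0 to 0.175) and the endothelial cadherin Cdh5 (0.287 to 0.481 against 0 to 0.191). These are 2 of 6 oviduct, 1 of 6 blood and immune and 1 of 9 stroma and endothelium markers that passed the filter. The rest overlapped between the 2 sets, and over all genes 9.94% had this order. The macrophage gene Lyz2 reached 58.1 CPM in KYZY 2.

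The start sites of the carriers and dehydrogenases are shown first because Ldha, Slc16a3 and Slc2a1 are textbook targets of the hypoxia-inducible factors, and Ldha and Slc16a3 were highest in the same 4 libraries while Slc2a1, Slc16a1 and Ldhb were not. Each line is a RefSeq promoter on GRCm38.p6, with 250 bases before and 50 after the start, 5′ to 3′ on the gene's strand. Capitals mark ACGTG or GCGTG, the core of the hypoxia response element, on either strand. The palindrome CACGTG, which is also the E-box core, counts once on each strand.

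Ldha: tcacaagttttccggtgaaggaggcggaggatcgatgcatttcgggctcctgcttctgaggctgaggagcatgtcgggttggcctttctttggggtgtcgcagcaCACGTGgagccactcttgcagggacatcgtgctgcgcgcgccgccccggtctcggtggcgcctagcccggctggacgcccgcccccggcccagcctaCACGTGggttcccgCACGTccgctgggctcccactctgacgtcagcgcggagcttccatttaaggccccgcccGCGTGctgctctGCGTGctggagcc
Slc16a3: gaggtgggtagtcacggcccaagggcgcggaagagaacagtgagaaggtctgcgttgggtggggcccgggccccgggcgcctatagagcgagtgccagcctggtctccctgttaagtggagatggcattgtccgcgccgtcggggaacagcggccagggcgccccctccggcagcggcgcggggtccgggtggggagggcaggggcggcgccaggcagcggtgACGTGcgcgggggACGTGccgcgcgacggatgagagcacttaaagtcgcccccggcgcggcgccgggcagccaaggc
Ldhb: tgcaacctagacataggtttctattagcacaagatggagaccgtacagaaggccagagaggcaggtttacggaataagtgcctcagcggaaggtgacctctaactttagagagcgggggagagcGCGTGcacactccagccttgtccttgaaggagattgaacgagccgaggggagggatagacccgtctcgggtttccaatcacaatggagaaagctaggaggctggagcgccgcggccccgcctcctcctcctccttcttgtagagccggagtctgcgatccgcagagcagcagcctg
Slc16a1: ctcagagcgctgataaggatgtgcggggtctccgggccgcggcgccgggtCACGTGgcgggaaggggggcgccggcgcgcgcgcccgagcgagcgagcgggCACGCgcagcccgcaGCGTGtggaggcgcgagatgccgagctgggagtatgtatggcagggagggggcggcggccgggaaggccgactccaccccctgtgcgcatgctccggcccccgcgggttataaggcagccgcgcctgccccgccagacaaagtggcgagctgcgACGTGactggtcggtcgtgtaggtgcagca
Slc2a1: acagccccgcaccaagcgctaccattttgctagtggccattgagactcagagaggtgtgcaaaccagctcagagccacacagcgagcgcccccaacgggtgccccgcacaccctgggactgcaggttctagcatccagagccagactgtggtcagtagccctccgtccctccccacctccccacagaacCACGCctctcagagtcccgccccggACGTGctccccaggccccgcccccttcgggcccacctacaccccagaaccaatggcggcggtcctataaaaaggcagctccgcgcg

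RefSeq lists 2 Ldha promoters, of which the printed one, with the more matches, lies at chr7:46845554-46845853 on the plus strand. The Ldhb promoter lies at chr6:142507908-142508207 on the minus strand, and the Slc16a3 promoter at chr11:120948817-120949116 on the plus strand. Those of Slc16a1 (chr3:104638414-104638713) and Slc2a1 (chr4:119108495-119108794) are also on the plus strand. The printed Ldha window held 7 matches and the second Ldha window (chr7:46846832-46847131, plus strand) held 2. The window of Slc16a1 held 5, those of Slc16a3 and Slc2a1 held 2 each and that of Ldhb held 1. Among all 32851 RefSeq promoters of this length, 43.77% held at least 1 match and 3.86% held at least 4. Each printed window, that of Ldhb included, thus holds these letters. Of the 2 Mpc1 windows, not printed, 1 held 1 match and the other 0, and the Mpc2 window held 1. The part of these letters in the levels was not tested. A match is a description of the sequence and not a measured site. Promoters were matched for 7 of the 10 genes.

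**Figure D1:**
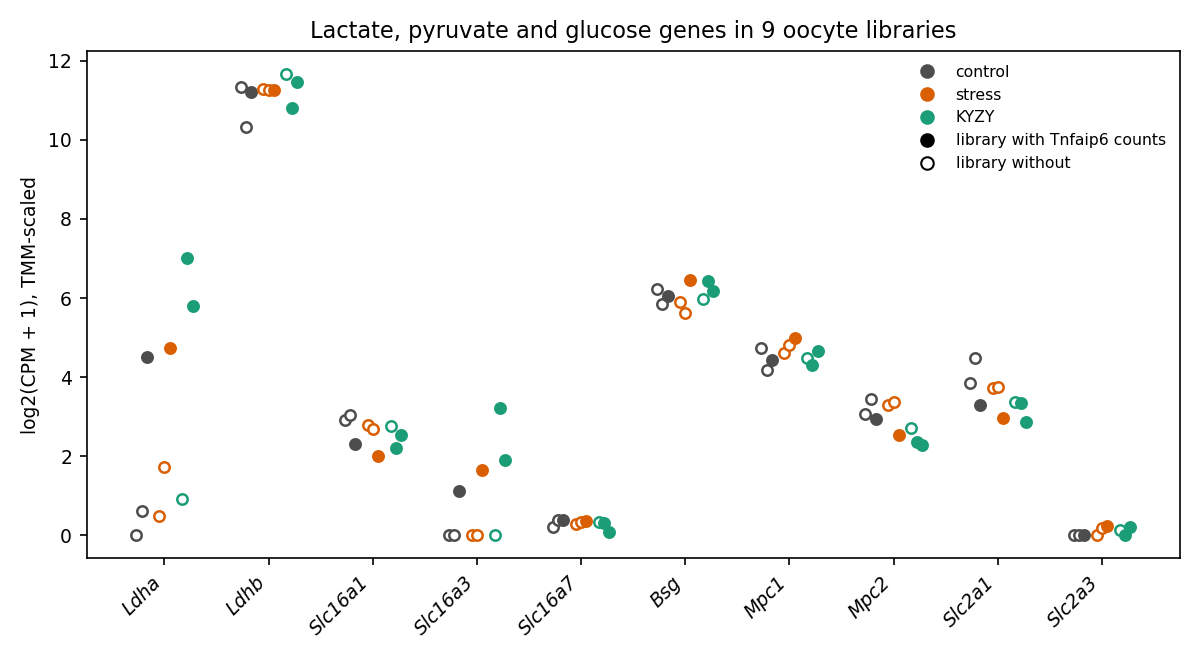
Level of each of the 10 genes in each library, as log2(CPM + 1) after TMM scaling. Each point is 1 library, coloured by group, and filled points are the 4 libraries with Tnfaip6 counts. Ldhb is the highest gene in every library, Ldha runs from 0 to 129 CPM with the filled points on top, and Slc16a7 and Slc2a3 lie near 0.

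Ldhb was by far the most abundant of the 10 transcripts. Per kilobase of exon, Ldhb stood at 1832 ± 435 CPM (SD, n = 9), Bsg at 40.1 ± 7.67, Mpc1 at 15.9 ± 2.89, Ldha at 13.8 ± 22.5, Mpc2 at 6.56 ± 2.24, Slc2a1 at 3.43 ± 1.42 and Slc16a1 at 1.17 ± 0.317 CPM per kilobase. Slc16a3 followed at 0.359 ± 0.613, Slc16a7 at 0.0205 and Slc2a3 at 0.0164 CPM per kilobase. Ldhb exceeded Bsg and Bsg exceeded Mpc1 in 9 of 9 libraries without overlap of their ranges. Slc2a1 likewise exceeded Slc16a1 in 9 of 9. The place of Ldha in this order was not fixed: Mpc1 exceeded Ldha in 7 of 9 libraries, and Ldha exceeded Mpc2 in 4 of 9. Mpc2 exceeded Slc2a1 in every library although their ranges overlapped, and the order among Slc16a3, Slc16a7 and Slc2a3 lay within their spread.

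None of the 10 genes passed the test of all genes in any of the 3 comparisons. With edgeR's quasi-likelihood test, 0 of 10 had a Benjamini-Hochberg adjusted p under 0.05 in stress against control, where 0% of the 13890 genes did, and the same held for KYZY against stress (0%) and KYZY against control (0%). DESeq2 also called 0 of the 10 in each comparison, against 0.159%, 0.0941% and 0.00724% of 13808 genes in the same order. At an unadjusted p under 0.05, stress against control held 0 of the 10 (2.69% of all genes), KYZY against stress held 1, Mpc2 (3.98%), and KYZY against control held 2, Mpc2 and Slc2a1 (2.74%). Counted by libraries, no gene of the 10 had groups without overlap in stress against control (7.88% of all genes) or KYZY against stress (9.19%), and 1, Mpc2, had in KYZY against control (7.23%). Fold changes were computed for the 7 genes other than Slc16a3, Slc16a7 and Slc2a3, which were at 0 or near it in most libraries. In stress against control 3 of these 7 were higher and 4 were lower, and their median log2 fold change was -0.03 against -0.04 over all genes. In KYZY against stress 3 were higher and 4 lower, with a median of -0.02 against 0.008, and in KYZY against control 4 were higher and 3 lower, with a median of 0.03 against -0.003. The comparisons share groups and are not independent of each other.

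**Figure D2:**
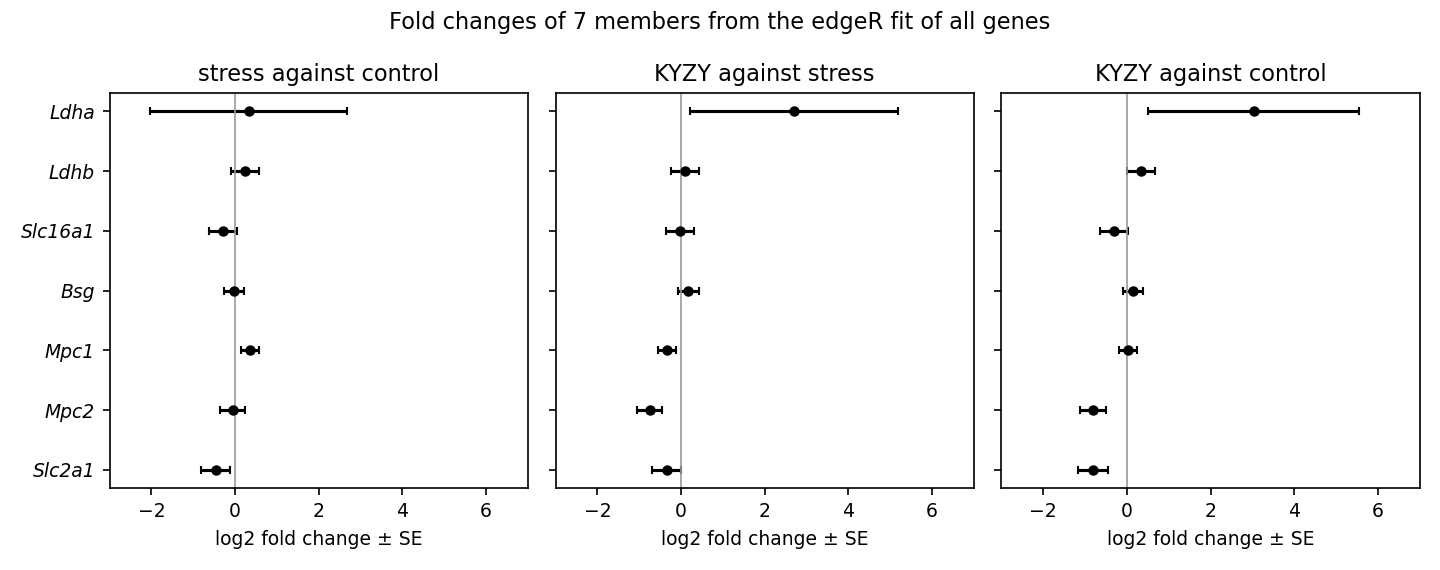
Log2 fold change of 7 genes in the 3 comparisons, from the edgeR fit of all genes, with its standard error as the bar. The bars of Ldha are the widest (SE 2.34 to 2.52), and in KYZY against control Mpc2 and Slc2a1 lie below 0 by 0.82 and 0.81.

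Ldhb, which encodes the B subunit of lactate dehydrogenase (chromosome 6, 142490249 to 142507957, GRCm38, minus strand), was high in every group. It held 2604, 1290 and 2348 CPM in control libraries 1 to 3, 2491, 2449 and 2451 CPM in stress libraries 1 to 3 and 3252, 1782 and 2828 CPM in KYZY libraries 1 to 3. Control 2 was the lowest library and KYZY 1 the highest, the stress libraries were close to each other, and the 3 groups overlapped. The mean of control oocytes was 2081 ± 697 CPM, that of stress oocytes 2464 ± 23.4 and that of KYZY oocytes 2621 ± 756 (SD, n = 3 each). The log2 fold change was 0.24 (SE 0.336) in stress against control and 0.33 (SE 0.337) in KYZY against control, with adjusted p of 0.9999 and 0.996 by edgeR.

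Ldha, the A subunit (chromosome 7, 46841475 to 46855627, plus strand), had the widest range of the 10 on the log2(CPM + 1) scale. Listed by replicate number, its level was 0, 0.525 and 22.0 CPM among controls, 0.417, 2.31 and 25.4 CPM among stressed mice and 0.884, 129 and 54.5 CPM among KYZY mice. In each group at least 1 library was near 0 and at least 1 was above 20 CPM, so the groups overlapped. The high ones were control 3, stress 3, KYZY 2 and KYZY 3, the libraries with Tnfaip6 counts. The KYZY mean was 61.3 ± 64.1 CPM, the stress mean 9.39 ± 13.9 and the control mean 7.50 ± 12.5 (SD, n = 3 each). The log2 fold change was 2.71 (SE 2.49) in KYZY against stress and 3.03 (SE 2.52) in KYZY against control, and edgeR's adjusted p was 0.935 and 0.996. With the presence of Tnfaip6 counts as a covariate it was 0.47 in KYZY against stress, 2.10 in KYZY against control and 1.63 in stress against control, where it was 0.32 (SE 2.34) in the model without the covariate. Without the 4 libraries the 3 values were -0.60, 1.72 and 2.32, from a fit in which KYZY 1 stands alone for its group and is assumed to vary like the others. No adjusted p passed in either. Leaving out 1 library at a time gave 1.56 (without KYZY 2) to 5.47 (without stress 3) in KYZY against stress and 1.88 (without KYZY 2) to 7.77 (without control 3) in KYZY against control. In such bulk samples fewer cells of a type and less RNA per cell cannot be told apart.

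The balance of the subunits followed Ldha. Of the counts of Ldha and Ldhb together, Ldha made up 0%, 0.0407% and 0.927% in control libraries 1 to 3, 0.0167%, 0.0943% and 1.03% in stress libraries 1 to 3 and 0.0272%, 6.73% and 1.89% in KYZY libraries 1 to 3. Ldhb therefore held most of these counts in each library. The log2 ratio of Ldhb over Ldha, with 1 CPM added to each, averaged 9.25 ± 2.37 for control, 8.95 ± 2.18 for stress and 6.74 ± 3.61 for KYZY oocytes (SD, n = 3 each). The difference of KYZY from stress was -2.21 (exact 2-sided permutation p = 0.4) and that from control -2.51 (exact permutation p = 0.4), and that of stress from control was -0.30 (exact permutation p = 0.7). A comparison of 3 libraries against 3 cannot give a p below 0.1 in this test. Single libraries moved these values: without KYZY 2 the differences of KYZY from stress and from control were -0.74 and -1.04, and without KYZY 1 they were -4.22 and -4.52. After Benjamini-Hochberg adjustment over all 9 ratio tests the values were 0.675, 0.675 and 0.7. Processed pseudogenes Ldha-ps and Ldha-ps2 lie on chromosomes 2 and 4 and were not analysed here, and how reads shared with them were counted is not given in the sources used here.

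The remaining lactate dehydrogenases were far below Ldhb. Ldhd, the D-lactate dehydrogenase of mitochondria, stood at 16.8 to 26.4 CPM, Uevld, a dehydrogenase-like gene, at 1.55 to 3.68 CPM, and Ldhc, the subunit of sperm, at 0 to 0.343 CPM. In the 5 libraries without Tnfaip6 counts Ldhd was above Ldha, at 19.4 to 25.0 against 0 to 2.31 CPM. In the 4 with them the ranges overlapped, at 16.8 to 26.4 against 22.0 to 129 CPM. Of these 4 genes, including Ldhal6b, 3 passed the filter and edgeR called 0 in each comparison. Ldhd was the only one with an unadjusted p under 0.05, in KYZY against control (0.0475).

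Slc16a1, the widely expressed carrier MCT1 (chromosome 3, 104638668 to 104658462), was present at a low level in all libraries. It held 6.58, 7.19 and 3.93 CPM in control libraries 1 to 3, 5.92, 5.51 and 3.01 CPM in stress libraries 1 to 3 and 5.76, 3.64 and 4.86 CPM in KYZY libraries 1 to 3. The lowest library of each group was one with Tnfaip6 counts, and the groups overlapped. Group means were 5.90 ± 1.73, 4.81 ± 1.58 and 4.75 ± 1.07 CPM for control, stress and KYZY (SD, n = 3 each). The log2 fold change was -0.29 (SE 0.340) in stress against control and -0.02 in KYZY against stress, where other settings changed its sign.

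Slc16a3, the low-affinity carrier MCT4 through which glycolytic cells release lactate (chromosome 11, 120948480 to 120960868), was found only in the 4 libraries with Tnfaip6 counts. It stood at 1.16 CPM in control 3, at 2.16 CPM in stress 3, and at 8.30 and 2.78 CPM in KYZY 2 and KYZY 3, from 89, 139, 565 and 136 counts. The other 5 libraries had 0 counts. A value of 0 allows up to 12 counts, or 0.105 to 0.245 CPM over the 9 libraries, since 1 read pair was worth about 4 counts and 3 pairs were taken as the floor. Each group held libraries of both kinds, and edgeR called no difference between groups.

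Slc16a7, the high-affinity pyruvate carrier MCT2 (chromosome 10, 125219270 to 125389465, minus strand), was at the edge of detection. Its counts ran from 3 to 32 per library and were above the floor of 12 in 7 libraries. It ranged from 0.165 to 0.306 CPM over control, from 0.221 to 0.295 over stress and from 0.0612 to 0.269 over KYZY libraries, so the groups overlapped. Bsg, basigin, which brings MCT1 and MCT4 to the cell surface (chromosome 10, 79704491 to 79711969), was well detected in all libraries. Listed by replicate number, its level was 74.3, 56.6 and 65.3 CPM among controls, 58.3, 48.2 and 86.4 CPM among stressed mice and 61.5, 84.6 and 71.3 CPM among KYZY mice. Its groups overlapped, with means of 65.4 ± 8.83, 64.3 ± 19.8 and 72.5 ± 11.6 CPM (SD, n = 3 each), and its log2 fold change was 0.17 or smaller in size in all 3 comparisons.

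Other monocarboxylate carriers and chaperones were also measured. Of 15 such genes 11 passed the filter, and edgeR called 0 of them in each comparison. The highest were Slc16a10, an aromatic amino acid carrier, at 65.8 to 109.5 CPM, Nptn, neuroplastin, a relative of basigin, at 29.5 to 62.1 CPM, and Slc16a13 at 10.2 to 34.5 CPM. Slc16a8 was at 0 in every library. Slc16a12, a creatine carrier named here after its values were seen, had an unadjusted p of 0.00741 in stress against control and 0.0116 in KYZY against stress, with means of 2.89 ± 1.30 CPM for control, 0.648 ± 0.502 for stress and 2.55 ± 1.44 for KYZY (SD, n = 3 each; edgeR adjusted p 0.9999 and 0.935).

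Mpc1 and Mpc2, the subunits of the mitochondrial pyruvate carrier, did not keep a fixed ratio. Mpc1 (chromosome 17, 8282904 to 8297661) held 25.6, 17.3 and 20.7 CPM in control libraries 1 to 3, 23.5, 27.3 and 30.7 CPM in stress libraries 1 to 3 and 21.5, 18.8 and 24.4 CPM in KYZY libraries 1 to 3. The stress libraries were at the upper end but overlapped both other groups. The log2 fold change was 0.36 (SE 0.208) in stress against control and -0.33 (SE 0.209) in KYZY against stress, with edgeR adjusted p of 0.9999 and 0.935. An antisense gene, 4930506C21Rik, shares 480 exon bases with Mpc1, and since the libraries hold no strand information reads of both could not be told apart; it was listed at 0 in every library.

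Mpc2 (chromosome 1, 165460637 to 165481214) had its lowest mean in KYZY oocytes. It held 7.41, 9.92 and 6.65 CPM in control libraries 1 to 3, 8.75, 9.44 and 4.77 CPM in stress libraries 1 to 3 and 5.61, 4.16 and 3.86 CPM in KYZY libraries 1 to 3. All 3 KYZY libraries were below all 3 control libraries, while stress 3 lay within the KYZY range. Group means were 7.99 ± 1.71, 7.65 ± 2.52 and 4.54 ± 0.936 CPM (SD, n = 3 each). The log2 fold change was -0.82 (SE 0.307, unadjusted p 0.0236) in KYZY against control and -0.75 (SE 0.307, unadjusted p 0.0335) in KYZY against stress, and edgeR's adjusted p of 0.996 and 0.935 did not pass. Its sign held in these 2 comparisons under all 18 alternatives, and without the 4 libraries with Tnfaip6 counts the values were -0.60 and -0.68. The sequencing described for the KYZY libraries moves with this difference, and its part cannot be told apart.

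The ratio of Mpc1 to Mpc2 counts was 3.46, 1.74 and 3.11 in control libraries 1 to 3, 2.69, 2.89 and 6.45 in stress libraries 1 to 3 and 3.84, 4.53 and 6.33 in KYZY libraries 1 to 3. It was highest in stress 3 and KYZY 3. On the log2 scale with 1 CPM added to each gene, KYZY exceeded control by 0.73 (exact 2-sided permutation p = 0.1, the smallest that 3 against 3 can give, and 0.675 after adjustment over the 9 ratio tests). Without control 2 it was 0.45. The difference was 0.44 in stress against control and 0.29 in KYZY against stress (exact permutation p = 0.6 each).

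Downstream of the carrier, 11 of 12 genes of pyruvate dehydrogenase, its regulators and pyruvate carboxylase passed the filter, and edgeR called 0 in each comparison. The structural subunit Pdhx stood at 218.7 to 403.2 CPM and the catalytic subunit Pdhb at 50.6 to 81.2 CPM. Pdha1, the other catalytic subunit, averaged 81.8 ± 15.3 CPM for control, 41.5 ± 5.99 for stress and 90.4 ± 5.25 for KYZY oocytes (SD, n = 3 each). Its 3 stress libraries lay below all others. Groups did not overlap for 7.88% of all genes in stress against control and 9.19% in KYZY against stress. The unadjusted p of Pdha1 was 0.000677 in stress against control and 0.000245 in KYZY against stress, with edgeR adjusted p of 0.9999 and 0.935. At an unadjusted edgeR p under 0.05, each comparison held 2 of the 11 genes, against 2.69%, 3.98% and 2.74% of all genes. Besides Pdha1 these were Pcx, in both comparisons with control, and Pdk1, in both comparisons with KYZY, named after their values were seen.

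Slc2a1, the glucose carrier GLUT1 (chromosome 4, 119108711 to 119137983), was the main glucose carrier among the 10 genes. Listed by replicate number, its level was 13.5, 21.5 and 8.78 CPM among controls, 12.3, 12.5 and 6.88 CPM among stressed mice and 9.44, 9.16 and 6.33 CPM among KYZY mice. Control 2 was the highest, and the lowest library of each group had Tnfaip6 counts. The groups overlapped, with means of 14.6 ± 6.45, 10.6 ± 3.20 and 8.31 ± 1.73 CPM (SD, n = 3 each). The log2 fold change was -0.81 (SE 0.356, unadjusted p 0.0443, edgeR adjusted p 0.996) in KYZY against control and -0.47 (SE 0.354) in stress against control. With the presence of Tnfaip6 counts as a covariate the value in KYZY against control was -0.51, and without the 4 libraries it was -0.86. The largest shift came without control 2, when the values were -0.41 in KYZY against control and -0.0851 in stress against control.

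Slc2a3, the high-affinity carrier GLUT3 (chromosome 6, 122727809 to 122801640, minus strand), was barely detected. It had 0 to 16 counts per library, was at 0 in 5 libraries and exceeded the floor of 12 counts in 1, stress 2, at 0.140 CPM. No fold change is given for it. The log2 ratio of Slc2a1 over Slc2a3, with 1 CPM added to each, averaged 3.88 ± 0.603 for control, 3.35 ± 0.538 for stress and 3.09 ± 0.375 for KYZY oocytes (SD, n = 3 each). With Slc2a3 near 0 this ratio follows Slc2a1 alone and says nothing of the balance of the 2 carriers, so its 3 tests are not read.

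Among 13 further glucose carriers 7 passed the filter and edgeR called 0 in each comparison. The highest were Slc2a12 at 3.16 to 7.50 CPM, Slc2a10 at 1.98 to 4.54 CPM and Slc2a9, a urate carrier of this family, at 0.675 to 3.05 CPM. Slc2a2, Slc5a1 and Slc5a2 were at 0 in every library. Slc2a12 and Slc2a10 had an unadjusted p under 0.05 in stress against control (0.0319 and 0.0136), both higher in stress, with edgeR adjusted p of 0.9999.

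Set side by side over the libraries with and without Tnfaip6 counts, 4 of the 10 genes did not overlap. Ldha and Slc16a3 were higher in each of the 4 libraries than in each of the 5, an order shared by 9.94% of all genes, and Slc16a1 and Slc2a1 were lower, an order shared by 7.09%. Slc16a3, at 0 counts in the 5, passed the filter only through the 4, which largely fixed its order. The split was read from these libraries, with 1, 1 and 2 of the 4 in control, stress and KYZY, so no test is given. Ldha stood at 22.0 to 129 CPM in the 4 libraries and at 0 to 2.31 CPM in the 5. The lowest of the 4 was 9.50-fold above the highest of the 5, and 22 of the 13890 genes (0.158%) had a gap at least as wide. For this count, a highest value of the 5 below 0.198 CPM, their highest floor, was set to that floor. More genes may therefore have so wide a gap. Slc16a3 was at least 5.84-fold higher in the 4 libraries, taking the lowest of them against the highest floor of the 5, 0.198 CPM per library.

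The same order held inside each group. For Ldha, the lowest library with Tnfaip6 counts exceeded the highest without by 41.8-fold among controls, 11.0-fold among stress and 61.7-fold among KYZY libraries. For Slc16a3 the value was at least 5.84-fold, 14.7-fold and 14.6-fold against the floor. Slc16a1 stood at 3.01 to 4.86 CPM in the 4 libraries and 5.51 to 7.19 CPM in the 5, and Slc2a1 at 6.33 to 9.16 and 9.44 to 21.5 CPM. Without TMM factors both of these overlapped, at 2.41 to 5.14 against 4.92 to 9.16 CPM for Slc16a1 and 5.50 to 9.34 against 8.06 to 27.4 CPM for Slc2a1, whereas Ldha and Slc16a3 stayed apart with TMM factors, without them and with relative log expression (RLE) factors. Ldhb, Bsg, Mpc1, Mpc2, Slc16a7 and Slc2a3 overlapped between the 2 sets under all 3 scalings. The summed cumulus and granulosa markers, which include Tnfaip6, move with this split, at 74.5 to 689 against 20.2 to 41.0 CPM. So do Krt8, Krt18, C1qa and Cdh5, named for this order, while the other markers tested from their lists overlapped between the 2 sets. C1qa in stress 3, at 0.186 CPM, was at the floor of 12 counts. The part of these markers, cumulus or other, in the levels of Ldha and Slc16a3 was not tested.

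**Figure D3:**
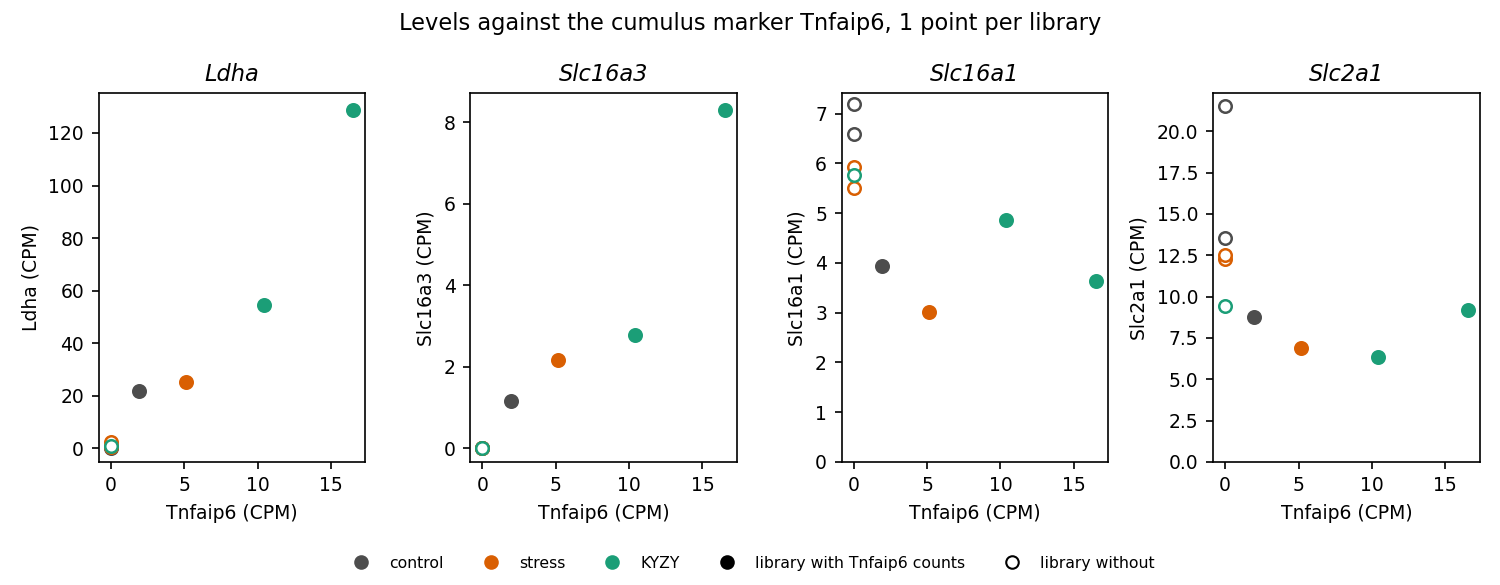
CPM of Ldha, Slc16a3, Slc16a1 and Slc2a1 (vertical axes, TMM-scaled) against CPM of Tnfaip6 (horizontal axes), with 1 point per library coloured by group and filled where Tnfaip6 had counts. Ldha and Slc16a3 are highest in KYZY 2, where Tnfaip6 is 16.5 CPM, and the 5 open points lie at 0 on the horizontal axis.

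Glycolytic enzymes, which make the pyruvate that lactate dehydrogenase uses, were in part higher in the 4 libraries with Tnfaip6 counts. Of 28 genes of this list 18 passed the filter and edgeR called 0 in each comparison. The highest were Aldoa at 132.0 to 412.4 CPM, Pkm at 100.2 to 238.3 CPM and Gapdh at 28.7 to 135.4 CPM. Of the 18, 7 were higher in each of the 4 libraries with Tnfaip6 counts than in each of the 5 without, against 9.94% of all genes, and 0 were lower. This order was read with TMM factors only, and other scalings were not compared for these genes. Gapdh stood at 86.7 to 135.4 CPM in the 4 and 28.7 to 44.4 CPM in the 5, and Pkm at 138.8 to 238.3 and 100.2 to 134.0 CPM. The other 5, named for this order, were Hk1, Aldoc, Tpi1, Pgam1 and Eno1. Aldoc stood at 0 to 0.0436 CPM in the 5 libraries and 0.388 to 1.63 CPM in the 4. It passed the filter only through the 4, which largely fixed its order. The summed level of the list was 569.9 to 1106 CPM in the 4 libraries and 403.9 to 521.2 CPM in the 5. In stress against control 8 of the 18 were higher and 10 were lower, and the median log2 fold change was -0.02. In KYZY against stress and against control 15 were higher and 3 lower, with medians of 0.53 and 0.62. Of all genes 50.8% and 49.7% were higher, with medians of 0.008 and -0.003. The summed level in KYZY 1, which had no Tnfaip6 counts, was 458.5 CPM, within the ranges of control (408.8 to 569.9) and stress (403.9 to 672.7). In KYZY 2 and KYZY 3 it was 1106 and 761.3 CPM, above both. KYZY held 2 of the 4 libraries with Tnfaip6 counts and the other groups 1 each, and the part of this in these medians was not tested.

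**Figure D4:**
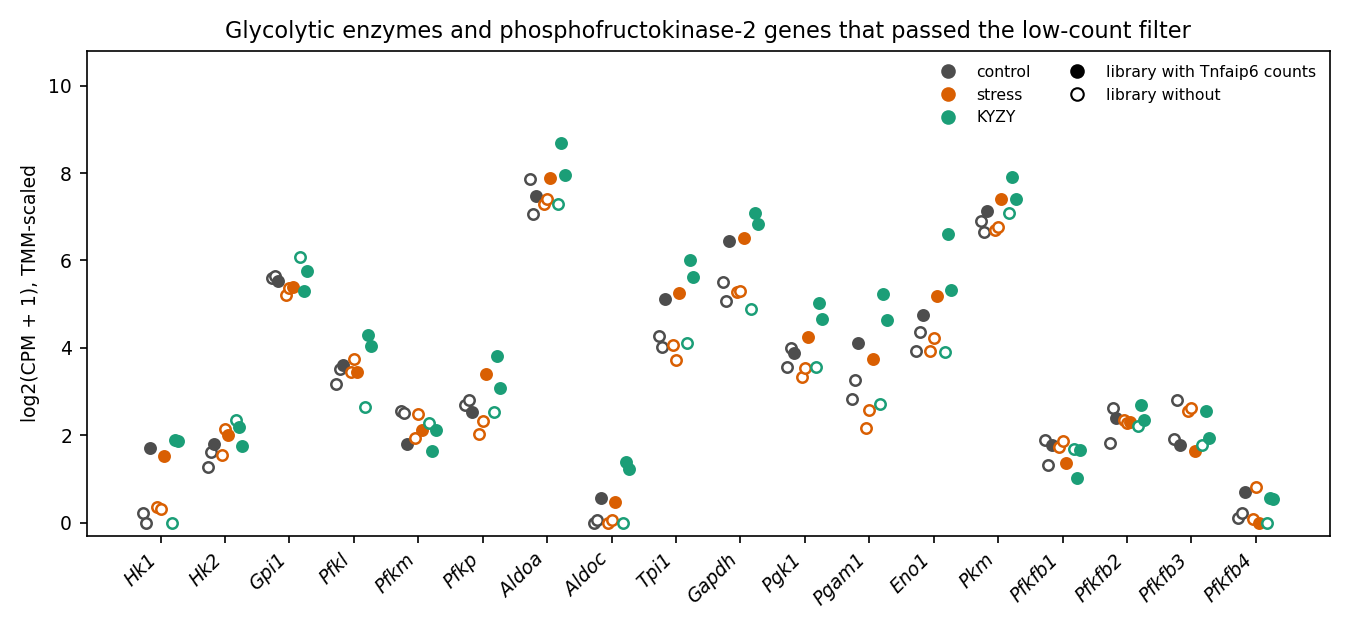
Level of the 18 glycolytic genes that passed the low-count filter, as log2(CPM + 1) after TMM scaling, with 1 point per library coloured by group and filled where Tnfaip6 had counts. The filled points of Hk1, Aldoc, Tpi1, Gapdh, Pgam1, Eno1 and Pkm lie above all open points of the same gene.

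Regulators of glucose uptake and of the response to low oxygen ranged widely in level. All 12 genes of the list passed the filter and edgeR called 0 in each comparison. Txnip, an inhibitor of glucose uptake, stood at 847.8 to 1735 CPM, Hif1a, the oxygen-regulated subunit of hypoxia-inducible factor, at 837.5 to 1572 CPM, and Arnt, its partner, at 53.2 to 89.0 CPM. Arnt and Prkaa2 were lower and Myc and Arrdc4 higher in each of the 4 libraries with Tnfaip6 counts than in each of the 5 without, while Txnip and Hif1a overlapped. Prkaa2, Myc and Arrdc4 are named after their values were seen. Over all genes 9.94% were higher and 7.09% lower in this way. The order of these genes was read with TMM factors, and other scalings were not compared for them. Myc, at 0 to 0.147 CPM in the 5, passed the filter only with the help of the 4.

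The genes whose levels followed the 2 lactate dehydrogenase subunits over the libraries were not the same. For Ldhb, the highest Pearson correlations of log2(CPM + 1) over the 9 libraries were with Dppa3 (0.970), Btf3 (0.966) and Srsf3 (0.949) among 13889 genes. For Ldha, which had the widest log2(CPM + 1) range of those of the 10 genes that averaged at least 1 CPM, they were with Ephx2 (0.994), Plod2 (0.994) and F11r (0.993). Ephx2 ran from 0 to 253.7 CPM and Plod2 from 0.0827 to 21.9 CPM. These values are descriptions over libraries that share their scaling and, for Ldha, rest on the 4 libraries with Tnfaip6 counts.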

How the data were processed

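The authors deposited 1 table of expected counts for each library, whole-number estimates per gene that are not normalised. The tables name no unit, which was taken from their values and the listed tools. Per the submitters' processing notes, the tools were HISAT2, StringTie, DESeq2, Trim Galore and bcl2fastq 2.20 and the builds GRCm38 and mm10, with no role or setting for each. In 9 of 9 libraries a count of 4 or 8 occurred more often than the counts beside it, so 1 read pair was taken as about 4 counts and the floor for a gene at 0 as 3 pairs, or 12 counts. Floors cover counting error only, since the libraries had no molecular identifiers. Library preparation used SMART-Seq v4 cDNA and Tn5 transposase, per the labels' protocols, and keeps no strand.

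The model was fitted with edgeR 4.0.16 in R 4.3.3 (quasi-likelihood F test, TMM scaling, filterByExpr at a count of 10 and a total of 15), with 1 mean per group over all 9 libraries and 6 residual degrees of freedom. The 13890 genes kept held 99.9832% of counts. Benjamini-Hochberg adjustment ran over all of them at a threshold of 0.05, and the fit was checked on simulated counts. DESeq2 1.42.0, RLE factors, other filters, counts divided by 4, Tnfaip6 status as a covariate or a reason for leaving libraries out, a replicate block and leaving out each library were alternatives. Two-sided exact permutation tests compared ratios of 2 genes. Exon lengths and coordinates are from GENCODE M21 on GRCm38, and 10 of 10 members matched.

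The members, the gene lists and the tests were chosen with earlier results of these data known. All 10 members were named, with the 3 highest genes of each pathway list, the 2 highest of each marker list and those at 0, any gene called, and the 3 genes most correlated with the most abundant and the most variable member; others are said to be named after their values were seen. Each library is 1 mouse. The labels do not say that replicate numbers mark a shared litter, batch or day. As a data check, same-numbered control and stress libraries deviated together (correlations of 0.165, 0.376 and 0.345), which was taken as possible pairing. Differently numbered ones ran from -0.464 (control 2 with stress 3) to 0.345 (control 2 with stress 1), so the check does not settle it. Control 3 and stress 3 both held Tnfaip6 counts, and their likeness cannot be told apart from that split. The main fit and the permutation tests used no pairing, and the replicate block was an alternative. KYZY and stress (0.344, -0.196 and 0.102) and KYZY and control (0.558, -0.0992 and 0.643) did not deviate together in every pair.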

Additional observations from a re-analysis of the deposited data

How the results depend on the processing

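No member was called in any comparison under any of the 18 alternatives. Of 21 log2 fold changes of members 12 kept 1 sign throughout, as did 8 of 9 ratio differences, and the cause of the changes of sign was not tested. Genes called over all genes, 0 in each comparison, became 148, 115 and 119 (stress against control, KYZY against stress, KYZY against control) without the libraries with Tnfaip6 counts, which leaves 5 libraries and KYZY 1 alone, 22, 13 and 1 with DESeq2, and 1 in KYZY against stress with the compared groups alone. Leaving out each library in turn gave 0 to 2, 0 to 1 and 0 to 3, the highest each time without control 3. With a replicate block 0 members and 0 genes were called, and the fold change of Slc16a1 in KYZY against stress was 0.0451. The block changed no call. Of 9 libraries 7 deviated most like another of their own number.

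Without the libraries with Tnfaip6 counts, the log2 fold change changed sign for Mpc2 in stress against control (0.0828), Ldha in KYZY against stress (-0.60) and Bsg in KYZY against control (-0.0635). Slc16a1 in KYZY against stress, -0.02, became 0.0274 with RLE factors, 0.0350 with a stricter filter, 0.00942 with the 2 groups alone, 0.00618 with counts divided by 4, 0.27 with the Tnfaip6 covariate, 0.0278 without the Tnfaip6 libraries and 0.0264 with DESeq2. Leaving out 1 library at a time gave ranges that cross 0 for these: in stress against control Ldha -2.45 to 5.03, Ldhb -0.0189 to 0.44, Bsg -0.30 to 0.14, Mpc2 -0.25 to 0.18 and the log2 ratio of Ldhb over Ldha -1.59 to 0.91; in KYZY against stress Ldhb -0.10 to 0.30 and Slc16a1 -0.27 to 0.18; in KYZY against control Mpc1 -0.0902 to 0.18. The comparison of scalings of the Tnfaip6 split was chosen after seeing the data and covered the members, not the genes of the pathway and marker lists. Depth limits Slc16a7 and Slc2a3, at 0 to 32 counts per library. Unscaled CPM gave other genes without overlap: Mpc1 in stress against control, Slc16a7 in KYZY against stress, and Mpc2 with Slc2a1 in KYZY against control.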

Other observations

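Ldha was also counted in 4 of the 5 libraries without Tnfaip6 counts, from 34 to 265 counts per library, all above the floor of 12, and had 0 counts in control 1. In the 4 libraries that held both Ldha and Slc16a3, the ratio of their counts was 19.0 in control 3, 11.8 in stress 3, 15.5 in KYZY 2 and 19.7 in KYZY 3, while the ratio of Ldha to Tnfaip6 was 11.3, 4.95, 7.79 and 5.24 in the same order. KYZY 3 had the highest sum of cumulus and granulosa markers, 689 CPM, and KYZY 2, at 362 CPM, the highest Ldha, Slc16a3 and Tnfaip6. Control 3 had a sum of 371 CPM and stress 3 one of 74.5 CPM, with Ldha at 22.0 and 25.4 CPM. Cyp11a1, the highest of these markers, stood at 228.1 CPM in control 3 and 14.7 CPM in stress 3. Tnfaip6 went the other way, at 1.94 and 5.14 CPM.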
